A study of Mus musculus with 8 samples.

Results

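Replication helicase and proliferation genes are 9 of the 18560 genes in a table of RNA levels from mouse dorsal root ganglia, the clusters of sensory neuron cell bodies beside the spinal cord. They were chosen by name. Mcm2, Mcm3, Mcm4, Mcm5, Mcm6 and Mcm7 encode the subunits of the MCM2-7 helicase, and Pcna, Mki67 and Top2a are used as markers of dividing cells. All 9 were found in the table and all 9 passed the filter on low counts. The study compared 4 libraries whose genotype label is WT_P60 with 4 whose label is cKO_P60, and its design text describes tissue with or without deletion of Alyref, which encodes an adaptor for mRNA export. The promoter or cell type that drives the deletion, sex, strain, the number of animals per library and any treatment are not stated in the labels. The design text describes biological replicates sequenced in 4 batches and does not assign libraries to batches, so batch and group could not be separated by a fit.

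MCM2-7 is a ring of related ATPases that is loaded onto origins of replication before S phase and then unwinds DNA at the fork. PCNA is the sliding clamp that holds DNA polymerases on the template and also serves DNA repair. Ki-67, the product of Mki67, coats mitotic chromosomes, and topoisomerase II alpha, the product of Top2a, untangles DNA before chromosomes separate. Adult sensory neurons do not divide, so that in nervous tissue these transcripts are read mainly as a sign of dividing glia, blood vessel cells or immune cells. Many MCM genes are driven by E2F factors in late G1, whereas genes of late S phase and mitosis are commonly controlled through a cell cycle homology region (CHR) and CCAAT boxes.

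Promoter sequences are shown for members that hold E2F letters or more than 1 CHR match before the start, since the text sets early and late cell cycle genes side by side. RefSeq promoter windows on GRCm38.p6, each 300 bases from 250 before the annotated start, matched 8 of the 9 genes, all except Mcm4, with a further window for Mcm7. The letters TTTCCCGC, TTTCGCGC, TTTGCCGC and TTTGGCGC were searched for E2F, TTTGAA and TTCGAA for the CHR, and CCAAT for the CCAAT box, on both strands. E2F letters occurred in the windows of Mcm3 (after the start only), Mcm5, Mcm6 and Mcm7, and in 2.26% of 32851 mouse promoter windows of the same length. They were not found in those of Mcm2, Pcna, Mki67 or Top2a. The search took only these exact letters within the windows, so a gene without a match may still hold other E2F sites. CHR letters occurred at 2 places for Mki67 and 4 for Top2a, and at a single place each for Mcm2 and Mcm7. At least 1 place was found in 19.2% of all windows and at least 2 in 2.54%. All 8 genes had CCAAT letters, as did 37.4% of all windows, with 6 places for Top2a and a single place in Pcna. The stretches below lie before the start that each window uses, which is not always the outer end of the gene span given further below. For Mcm7 that start is inside the span, so its whole stretch lies within 138164583 to 138172111. The Mcm5 stretch runs past the first base of its span, 75109468. All stretches run 5′ to 3′ on the strand of the gene, and capitals mark these letters in either orientation. Overlapping E2F letters on both strands merge into longer capital runs in Mcm5 and Mcm6.
Mcm5, chr8:75109344-75109494, plus strand: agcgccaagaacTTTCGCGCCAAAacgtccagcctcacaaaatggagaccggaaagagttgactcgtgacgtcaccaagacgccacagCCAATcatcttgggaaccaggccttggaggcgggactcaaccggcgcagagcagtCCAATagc
Mcm6, chr1:128359715-128359825, minus strand: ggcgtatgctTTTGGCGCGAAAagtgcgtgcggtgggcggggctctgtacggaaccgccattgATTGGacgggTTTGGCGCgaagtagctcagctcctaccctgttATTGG
Mcm7, chr5:138171898-138172063, minus strand: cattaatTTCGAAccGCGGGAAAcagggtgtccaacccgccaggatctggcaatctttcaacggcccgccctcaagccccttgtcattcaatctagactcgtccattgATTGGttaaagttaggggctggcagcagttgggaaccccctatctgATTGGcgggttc
Mki67, chr7:135716464-135716574, minus strand: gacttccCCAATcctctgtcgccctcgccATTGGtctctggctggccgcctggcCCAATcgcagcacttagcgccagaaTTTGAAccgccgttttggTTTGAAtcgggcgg
Top2a, chr11:99024204-99024384, minus strand: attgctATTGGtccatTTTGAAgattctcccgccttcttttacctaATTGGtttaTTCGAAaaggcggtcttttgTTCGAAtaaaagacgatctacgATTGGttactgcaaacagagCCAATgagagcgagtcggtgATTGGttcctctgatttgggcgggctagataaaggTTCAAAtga

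**Figure D1:**
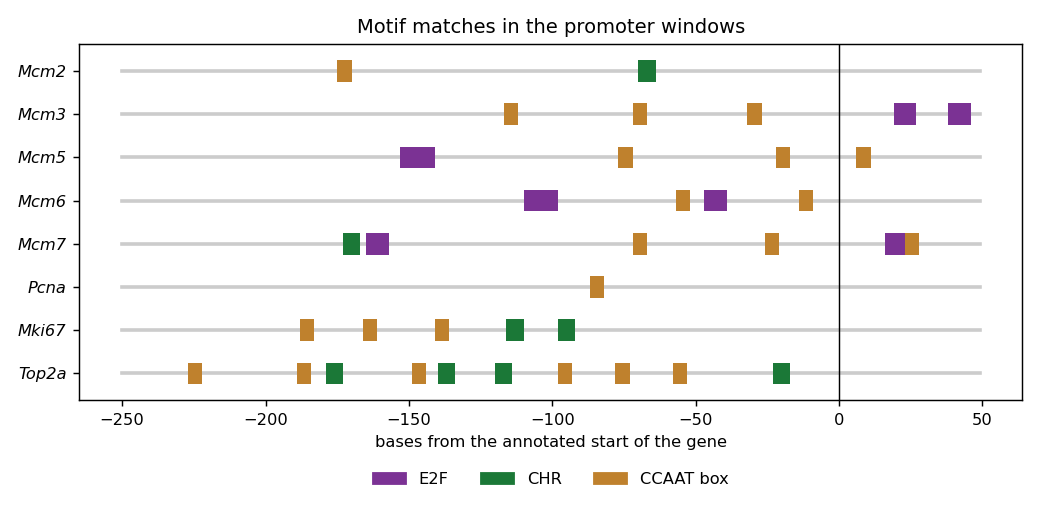
Matches to the letters of E2F (purple), the CHR (green) and the CCAAT box (brown) in the promoter windows of 8 genes, by distance in bases from the start that each window uses. E2F letters lie in 4 MCM genes, and Mki67 and Top2a hold 2 and 4 CHR matches.

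Total estimated counts were 15522915 to 16482614 per library. Alyref itself was between 46.3 and 54.9 TPM, an abundance scaled for transcript length and depth, in all 8 libraries, and its log2 fold change, cKO against WT, was −0.11 ± 0.0966 (SE; adjusted p = 0.887, edgeR), so its level did not check the labels and the groups are named as labelled. WT replicate 2 stood apart. Its Spearman correlations with other libraries across genes were 0.944 to 0.967, against 0.99 to 0.996 among the other 7. All 14 sensory neuron markers were at their highest there, with a summed level of 4948 TPM against 496.5 to 1684 TPM elsewhere. All 15 spinal cord markers were at their lowest there, with a sum of 1243 TPM against 3066 to 4263 TPM. The spinal cord sums exceeded the sensory neuron sums in the other 7 libraries, although the label names ganglia. The median ratio of WT replicate 2 to the median of the other 7 was 0.892 over all tested genes on the TPM scale, and ratios below are to be read against that shift.

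WT replicate 2 held the highest value of every member, and of 27.3% of all tested genes. The groups overlapped for all 9, and they did not overlap for 1.41% of tested genes. Among the MCM genes, Mcm5, which helps form the gate of the ring (Entrez 17218, chromosome 8, 75109468 to 75128439, GRCm38), had the highest ratio. It stood at 3.57, 8.98, 4.33 and 4.06 TPM in WT replicates 1 to 4 and at 4.06, 3.43, 4.81 and 3.44 TPM in cKO replicates 1 to 4. WT replicate 2 was 2.21 times the median of the other 7, and the remaining WT values lay within the range of the cKO values. Mcm3 (Entrez 17215, chromosome 1, 20802966 to 20820312) stood at 4.44, 10.83, 5.23 and 6.05 TPM in WT and 6.08, 4.81, 6.24 and 4.29 TPM in cKO. Its ratio in WT replicate 2 was 2.07, and the other WT values again lay within the cKO range.

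Mcm2, which with Mcm5 flanks the gate of the ring (Entrez 17216, chromosome 6, 88883474 to 88898780), stood at 4.44, 8.99, 6.13 and 6.74 TPM in WT and 5.12, 4.87, 6.51 and 4.82 TPM in cKO. The ratio in WT replicate 2 was 1.76, and WT replicate 1 was the lowest library. Mcm6 (Entrez 17219, chromosome 1, 128331575 to 128359705) stood at 7.84, 17.47, 10.91 and 10.02 TPM in WT and 9.38, 8.15, 10.40 and 8.09 TPM in cKO. The ratio was 1.86, and again WT replicate 1 was lowest.

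Mcm4 and Mcm7, which together with Mcm6 form the core of the ring with helicase activity, had the smallest excess in WT replicate 2 among the MCM genes. Mcm4 (Entrez 17217, chromosome 16, 15623897 to 15637400) stood at 11.03, 15.80, 12.08 and 11.94 TPM in WT and 14.33, 11.80, 12.91 and 9.91 TPM in cKO, a ratio of 1.32. Mcm7 (Entrez 17220, chromosome 5, 138164583 to 138172111) stood at 17.0, 21.89, 14.89 and 15.13 TPM in WT and 18.37, 13.77, 16.76 and 14.30 TPM in cKO, a ratio of 1.45. For both genes cKO replicate 1 was the next highest library. Exons of Mcm7 overlap those of Ap4m1 by 321 bases and those of Cops6 by 64 bases on the opposite strand, and the strand setting of the libraries is not given in the sources used here. Cops6 stood at 225 to 266 TPM, so the Mcm7 count is uncertain to that extent.

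The largest excess was in the mitotic markers. Mki67 (Entrez 17345, chromosome 7, 135689784 to 135716450) stood at 3.89, 13.96, 5.19 and 4.91 TPM in WT and 6.34, 2.85, 6.78 and 3.26 TPM in cKO. Top2a (Entrez 21973, chromosome 11, 98992947 to 99024199) stood at 4.03, 13.59, 4.94 and 5.56 TPM in WT and 5.42, 3.08, 7.68 and 4.34 TPM in cKO. WT replicate 2 was 2.84 times the median of the other 7 for Mki67 and 2.75 times for Top2a, a ratio of at least 2 that 8.96% of tested genes reached. The cKO libraries divided for both genes, with replicates 1 and 3 above replicates 2 and 4. Top2b, the paralogue of Top2a that neurons and other resting cells use, was at its lowest in WT replicate 2, at 39.81 TPM against 42.02 to 48.14 TPM elsewhere. That was 0.859 times the median of the other 7, near the median ratio of 0.892 over all tested genes. Pcna (Entrez 18538, chromosome 2, 132249286 to 132253180) stood at 139.92, 186.40, 133.02 and 133.09 TPM in WT and 141.90, 132.41, 137.29 and 138.07 TPM in cKO. Its ratio in WT replicate 2 was 1.36, and the other 7 libraries lay close together. RefSeq annotates pseudogenes of Pcna, whose shared reads the authors' counting could assign to either.

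**Figure D2:**
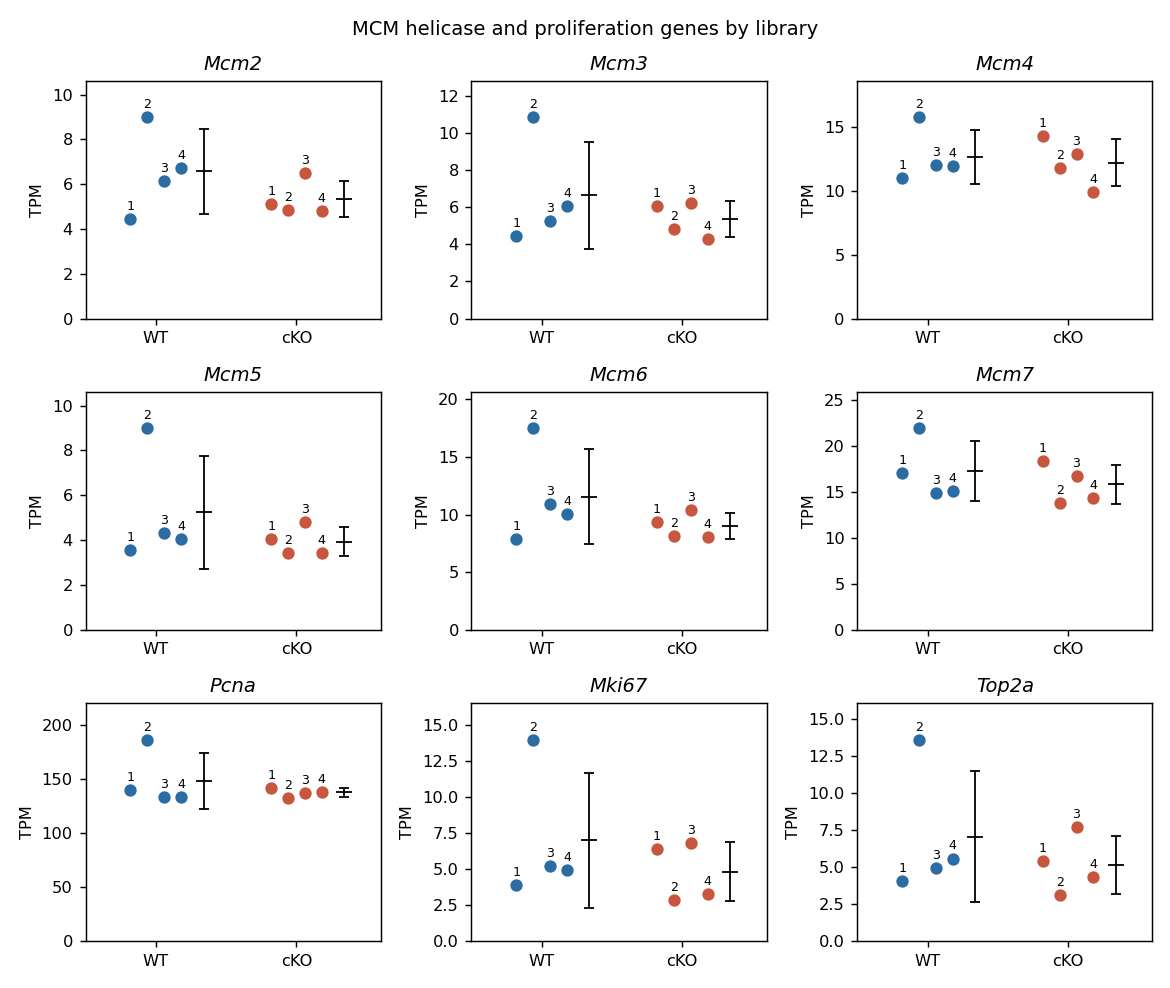
TPM of each gene in the 4 WT (blue) and 4 cKO (red) libraries, with replicate numbers, and the mean and SD of each group (n = 4) as a black bar. WT replicate 2 is the highest point in all 9 panels, with Mki67 at 13.96 TPM and Pcna at 186.40 TPM.

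The comparison of the groups asked whether the deletion went with a change of these genes. None of the 9 passed the threshold of 0.05 in edgeR's quasi-likelihood test with Benjamini-Hochberg adjustment over 15098 genes, where 0.0% of genes passed. At an unadjusted p below 0.05 there were 0 of the 9 and 1.65% of all genes (249), and the other tools, DESeq2 and limma, likewise had 0 of the 9. All 9 fitted log2 fold changes were below 0, from −0.62 to −0.10 with a median of −0.38, while 51.5% of all tested genes were below 0 with a median of −0.01. Mki67 had 6.99 ± 4.68 TPM in WT and 4.81 ± 2.04 TPM in cKO (SD, n = 4 each), and a log2 fold change of −0.62 ± 0.487 (SE; 95% interval −1.73 to 0.49, adjusted p = 0.887, edgeR). Top2a had 7.03 ± 4.42 and 5.13 ± 1.95 TPM (SD, n = 4 each) and −0.54 ± 0.447 (SE; −1.56 to 0.48, adjusted p = 0.887, edgeR). Mcm5 had 5.24 ± 2.52 and 3.94 ± 0.654 TPM and −0.48 ± 0.333 (SE; −1.24 to 0.28, adjusted p = 0.887, edgeR). Pcna had 148.1 ± 25.7 and 137.4 ± 3.90 TPM and −0.15 ± 0.151 (SE; −0.50 to 0.19, adjusted p = 0.887, edgeR). A two-sided exact permutation test of log2 CPM, with 70 ways to assign libraries, gave unadjusted p from 0.286 (Mcm6) to 0.857 (Pcna), where the smallest possible is 0.0286.

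These differences rested on WT replicate 2. Without it 6 of the 9 log2 fold changes lay above 0, beside 50.1% of all tested genes, and the median was 0.04. They ranged from −0.10 (Mcm2) to 0.09 (Top2a). The mean of Mki67 in the remaining 3 WT libraries was 4.66 ± 0.684 TPM (SD, n = 3) against 4.81 in cKO, and its log2 fold change was 0.05 ± 0.289 (SE; 95% interval −0.60 to 0.71, adjusted p = 0.9997, edgeR). That interval allows from 0.661 to 1.63 times the WT level. Pcna, with 135.3 ± 3.96 TPM (SD, n = 3) in WT, had the narrowest interval, from 0.951 to 1.11 times the WT level. None of the 9 passed, and 0.00661% of 15119 genes did, a single gene, Capn11. At an unadjusted p below 0.05 there were 0 of the 9 and 1.94% of all genes. Exact permutation p over the 35 assignments was 0.371 to 0.971, unadjusted, and groups again overlapped for all 9, while they did not overlap for 3.29% of tested genes. In whole tissue, fewer cells of a kind and less RNA per cell cannot be told apart.

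**Figure D3:**
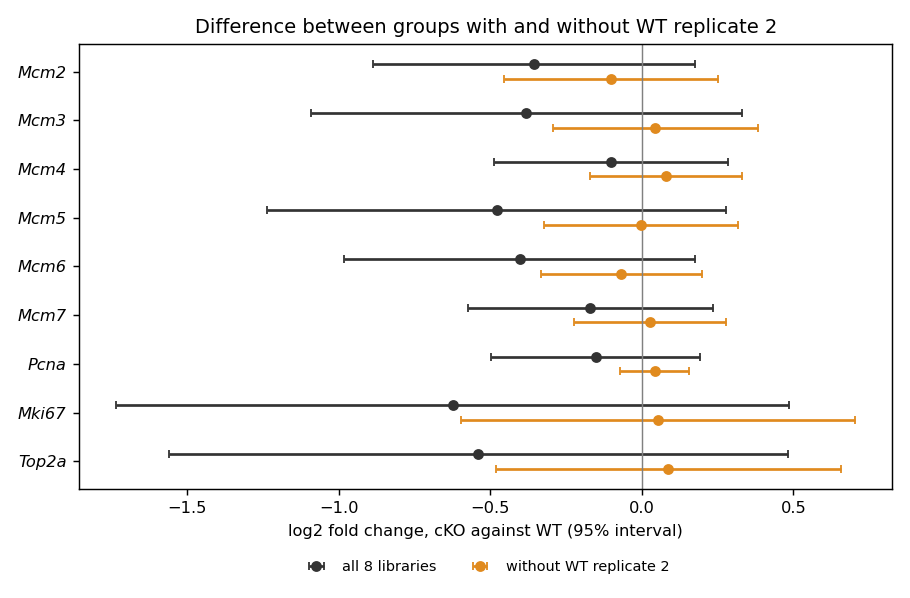
Log2 fold change of each gene, cKO against WT, with its 95% interval from edgeR, for all 8 libraries (black) and without WT replicate 2 (orange). All 9 intervals include 0 in both fits, and the Mki67 estimate moves from −0.62 to 0.05.

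Per transcript length, the levels of the genes formed a clear order only at the top. Pcna averaged 142.8 TPM over the 8 libraries and Mcm7 16.5 TPM, followed by Mcm4 at 12.5, Mcm6 at 10.3, Top2a at 6.08, Mcm3 at 5.996, Mcm2 at 5.95, Mki67 at 5.90 and Mcm5 at 4.59 TPM. Each neighbouring pair from Pcna to Top2a differed, with Mcm4 above Mcm6 in 7 of 8 libraries and the other 3 pairs ordered alike in 8 of 8 (paired exact sign-flip test of log2 TPM, adjusted p = 0.0208 to 0.0312 over 8 pairs). The 4 pairs from Top2a down to Mcm5 did not differ beyond their spread over libraries (paired exact test, adjusted p = 0.113 to 0.891). Without WT replicate 2 the order below Mcm6 was another, with Mcm2 at 5.52, Mcm3 at 5.31, Top2a at 5.01, Mki67 at 4.75 and Mcm5 at 3.96 TPM. Neighbours from Mcm2 down again did not differ beyond their spread (paired exact test, adjusted p = 0.225 to 0.469), and those from Pcna to Mcm2 did (adjusted p = 0.0312, 7 of 7 libraries, exact test). Among subunits of the ring Mcm7 was the highest and Mcm5 the lowest subunit in all 8, with a ratio of 3.44 to 4.76 in 7 libraries and 2.44 in WT replicate 2. The level of Mcm7, and so its place in this order, carries the uncertainty of the exon overlaps given above.

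The 7 other libraries were not alike in their mitotic markers. Mki67 varied by 2.38-fold among them and Top2a by 2.49-fold, with coefficients of variation (CV) of 31.5% and 29.1%, where counting error alone gives 5.33% and 7.06%. MCM genes varied by 1.33- to 1.52-fold, with CVs of 10.6% to 16.7% against counting errors of 5.58% to 9.95%. Pcna varied by 1.07-fold, with a CV of 2.75% against a counting error of 3.10%, so its spread was not above counting error. The median CV was 7.89% over 14630 tested genes with a mean of at least 1 CPM. Counts behind the members were between 88 (Mcm5) and 1743 (Pcna) per library. The cKO group held both ends, and cKO replicate 3 had the highest Mki67 and Top2a of the 7 libraries and cKO replicate 2 the lowest.

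Genes of S and M phase outside the 9 had a like order of libraries. Of 41 tested genes of S and M phase cyclins and kinases, the mitotic spindle and cytokinesis, 38 lay above the median of the 7 in WT replicate 2, where 37.4% of all tested genes did. In cKO replicate 3 there were 34 above it (53.3% of all genes) and in cKO replicate 1 there were 28 (39.4%). In cKO replicate 2 only 4 lay above it (35.9%), in WT replicate 1 there were 5 (38.0%) and in cKO replicate 4 there were 6 (33.9%). WT replicates 3 and 4 had 23 each. Birc5, the survivin subunit of the chromosomal passenger complex, stood at 9.62, 21.31, 8.93 and 11.65 TPM in WT and 10.46, 6.33, 10.67 and 6.50 TPM in cKO. Its high and low cKO libraries were those of Mki67.

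None of the 133 tested genes in the 12 lists of replication and cell cycle genes passed in either direction, with all libraries (lowest adjusted p = 0.887, edgeR) or without WT replicate 2 (lowest 0.9997). With all libraries 108 were fitted below 0 and 25 above, with a median of −0.15, and WT replicate 2 held the highest value of 82 (61.7%). Without that library 61 were below 0 and 72 above, with a median of 0.01. The lowest fitted medians were those of 25 genes of the mitotic spindle and cytokinesis, at −0.45, and 16 S and M phase cyclins and kinases, at −0.38. Without WT replicate 2 these medians were 0.01 and 0.07. WT replicate 2 was the highest library for 22 of the 25 and 14 of the 16. In these lists Bub1b, a spindle checkpoint kinase, and Cdk2, a kinase of S phase entry, had the lowest p among cyclins and kinases, and Cdca3 and Birc5 among spindle genes. Their log2 fold changes were −0.50, −0.57, −0.60 and −0.58, and none passed.

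Genes that act with the helicase on the origin had fitted medians nearer to 0. Origin licensing genes, which load MCM2-7, had 7 of 10 fitted below 0 and a median of −0.03 (0.004 without WT replicate 2), and 5 of 10 had their highest level in that library. Cdt1 and Cdc6, the loading factors themselves, had the lowest p. Cdt1 stood at 2.71, 4.82, 2.88 and 3.35 TPM in WT and 2.81, 1.76, 3.13 and 2.54 TPM in cKO. Cdc6 was at 2.28 TPM in WT replicate 2 and at 0.74 to 1.38 TPM elsewhere. Helicase activation genes had 9 of 12 below 0 (median −0.13, and −0.04 without WT replicate 2). Dbf4, the activator of the Cdc7 kinase that phosphorylates MCM proteins, had −0.67 ± 0.3 (SE; unadjusted p = 0.0531, adjusted p = 0.887, edgeR) and Topbp1, a scaffold of replication initiation, −0.14 ± 0.0613 (SE; unadjusted p = 0.0448, adjusted p = 0.887, edgeR). For Topbp1 the 3 WT libraries other than replicate 2 lay above all 4 cKO libraries, at 12.46 to 12.57 against 10.68 to 12.12 TPM. WT replicate 2 lay within the cKO range, at 11.90 TPM. Without it the groups did not overlap for 3.29% of all tested genes, and Topbp1 had unadjusted p = 0.0886 (adjusted p = 0.9997, edgeR). The MCM relatives Mcm8, Mcm9 and Mcmdc2 were all at their lowest TPM in WT replicate 2. Their sum there was 0.803 times the median of the other 7, where the median ratio of all tested genes was 0.892. The share of all genes at their lowest in that library was not counted.

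Fork enzymes and nucleotide supply lay between these groups. Clamp loader and fork factors had 15 of 17 fitted below 0 (median −0.08), polymerases and primase 8 of 12 (median −0.10) and nucleotide synthesis 9 of 9 (median −0.08), and the medians without WT replicate 2 were 0.07, 0.02 and 0.03. Rrm2, the S phase subunit of ribonucleotide reductase, was at 22.53 TPM in WT replicate 2 and at 5.59 to 10.77 TPM elsewhere. Tk1, the cytosolic thymidine kinase, was at 10.91 TPM there and at 3.17 to 6.29 TPM elsewhere. Rfc3, a clamp loader subunit, and Atad5, which unloads the clamp, had log2 fold changes of −0.34 and −0.23, and Pola2 and Pole2, polymerase subunits, −0.21 and −0.62. Regulators of the E2F and RB family had 11 of 17 below 0 (median −0.09, and −0.03 without WT replicate 2), with E2f2 at 9.48 TPM in WT replicate 2 against 2.21 to 4.40 TPM elsewhere, and Rbl1, an RB relative, at 6.27 against 2.87 to 5.09 TPM. G1 cyclins and kinases had 5 of 5 below 0 (median −0.16), and CDK inhibitors 4 of 6 (median −0.21), with −0.02 for each without WT replicate 2. Cdk4 and Cdk6, kinases of G1, had −0.16 and −0.49, and the inhibitors Cdkn1b and Cdkn2c −0.28 and −0.46. All these genes had adjusted p = 0.887 (edgeR).

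**Figure D4:**
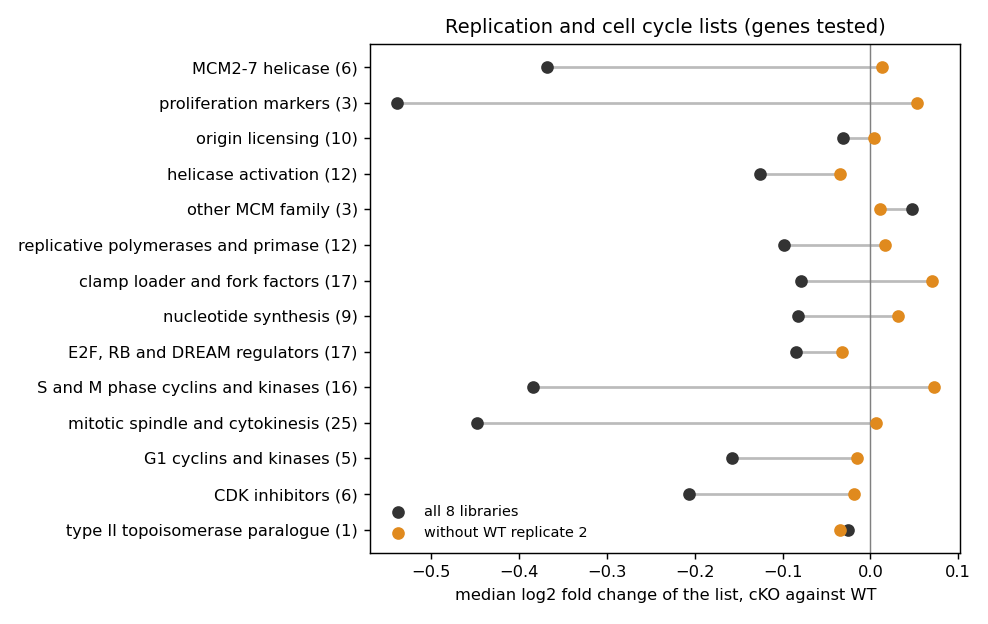
Median log2 fold change, cKO against WT, of each replication and cell cycle list with the number of tested genes in brackets, for all 8 libraries (black) and without WT replicate 2 (orange). The spindle list moves from −0.45 to 0.01 and the MCM2-7 list from −0.37 to 0.01.

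Markers of blood cells varied with the mitotic markers from library to library. The lymphocyte and granulocyte list had 10 of its 14 genes tested, all 10 with their highest level in WT replicate 2 and 9 at least 2 times the median of the other 7. Its summed level was 5377 to 18260 TPM in WT, or 5377 to 7676 TPM without replicate 2, and 3798 to 9743 TPM in cKO. Of the 7 other libraries cKO replicate 3 was again the highest, and cKO replicates 2 and 4 were the lowest. S100a8 and S100a9, calcium-binding proteins of neutrophils, made up most of this sum. Mpo and Elane, granule proteins that neutrophil precursors of the bone marrow transcribe while they still divide, followed the same division. Mpo stood at 26.58, 79.67, 29.74 and 24.01 TPM in WT and 35.65, 16.33, 38.60 and 15.58 TPM in cKO. Elane stood at 35.40, 101.85, 37.42 and 30.66 TPM in WT and 40.42, 15.77, 45.15 and 23.80 TPM in cKO. The T cell gene Cd3e was at 0 in WT replicate 1 and cKO replicate 3 and at most 0.35 TPM elsewhere. The 7 erythroid genes in the table were also highest in WT replicate 2, with a sum of 18210 TPM against 5008 to 14680 TPM, but there WT replicate 3 was next and cKO replicate 3 was near the low end, at 8642 TPM. The part of these cells in the levels of the 9 genes was not tested.

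Markers of other cells that can divide were summed in the same way. Markers of oligodendrocyte precursors, the main dividing cell of adult central tissue, were lower in WT replicate 2, with 7 of 10 at their lowest and a sum of 242.2 TPM against 429.2 to 570.3 TPM. Their sum was 461.4 TPM in cKO replicate 3 and 500.5 TPM in cKO replicate 2, the libraries with the highest and lowest Mki67 of the 7. Microglia and macrophage markers summed to 275.0, 293.8, 292.8 and 258.1 TPM in WT and 290.4, 274.1, 291.1 and 275.1 TPM in cKO. By this sum WT replicate 2 was highest and cKO replicates 1 and 3 lay above cKO replicates 2 and 4, as for Mki67. Of the list only C1qa, Aif1 and Itgam had this division in cKO. C1qa, the most abundant, stood at 112.17, 95.65, 108.01 and 98.61 TPM there. The other genes did not, such as Cx3cr1 at 18.54, 21.12, 18.84 and 19.32 TPM. The range of the sum was narrower, at 1.13-fold among the 7 other libraries, and WT replicate 4 had the lowest sum of all. Single genes of the list were divided in WT replicate 2, with 6 of 10 at their highest there. Another 4, Cx3cr1, P2ry12, Tmem119 and Csf1r, were at their lowest there. Endothelial markers summed to 116.9 to 143.5 TPM in WT and 88.7 to 144.2 TPM in cKO, with cKO replicate 3 the lowest of all. Fibroblast markers were high in WT replicate 2, at 2986 TPM with 9 of 10 highest there, and at 819.4 to 1375 TPM elsewhere, where WT replicate 3 led. Satellite glia markers summed to 8201 TPM in WT replicate 2 and 10310 to 14020 TPM elsewhere, and Schwann cell markers to 6899 and 4140 to 7899 TPM. No defining marker in the lists was at 0 in every library.

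**Figure D5:**
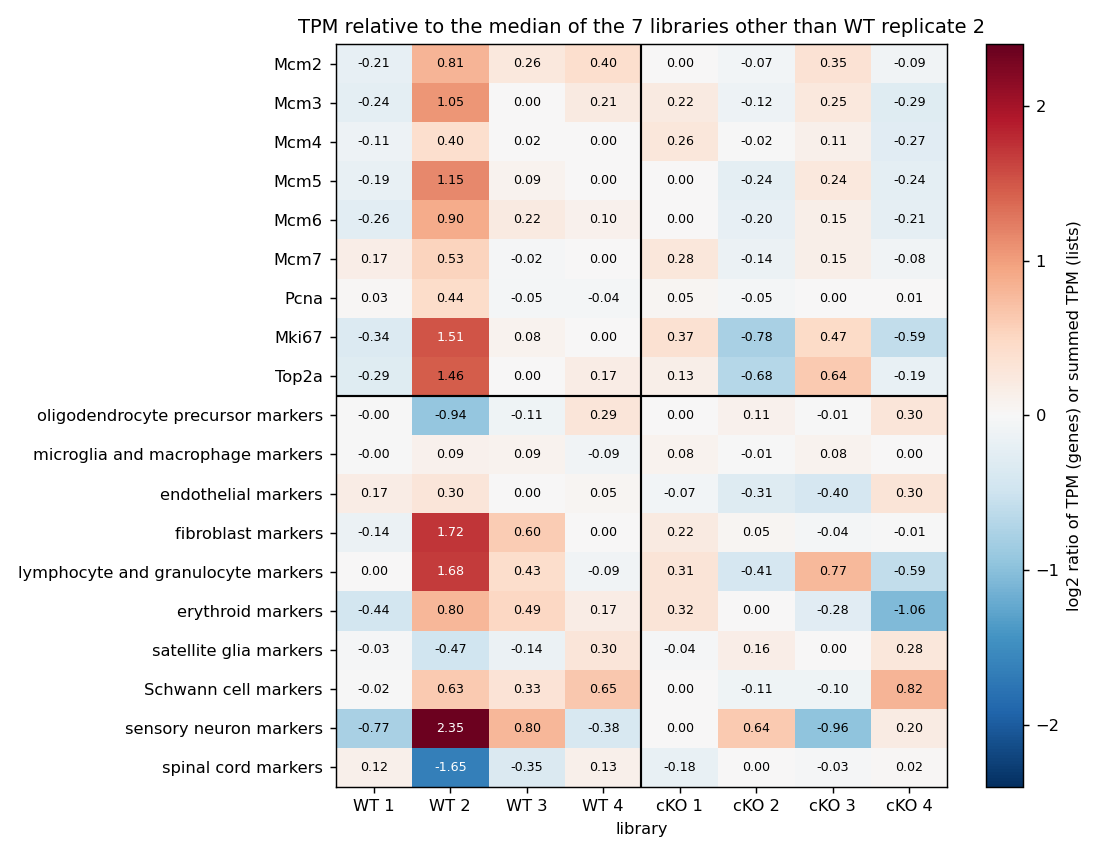
Log2 ratio of each library to the median of the 7 libraries other than WT replicate 2, for the TPM of the 9 genes (above the line) and the summed TPM of cell type markers (below it). In cKO replicates 1 to 4, Mki67, Top2a and the lymphocyte and granulocyte list are above, below, above and below the median, and Pcna stays near it.

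The genes most like the 9 in their profile over libraries were found by the root mean square difference of standardised log2 CPM from the mean profile of the 9, in SD units, among 14630 genes. Over 8 libraries, where WT replicate 2 sets the profile, these were Smc4, a condensin subunit (0.11), Unc13d, a factor of granule secretion in immune cells (0.111), Hvcn1, a proton channel of phagocytes (0.131), S1pr4, a sphingosine phosphate receptor of leukocytes (0.134), and Grap2, an adaptor of T cell signalling (0.144), against a median of 1.33 over all genes. Over the 7 other libraries they were S1pr4 (0.154), Il6ra, the interleukin 6 receptor (0.204), Ptpn7, a phosphatase of blood cells (0.208), Grap2 (0.214) and Pspc1, a paraspeckle protein (0.216), against a median of 1.31. S1pr4 stood at 0.49, 2.71, 0.75 and 0.77 TPM in WT and 1.0, 0.47, 1.02 and 0.52 TPM in cKO, on counts of 8 to 56. Grap2 had counts of 19 to 143 and Ptpn7 of 15 to 123. Standardised profiles leave out the size of the differences. Pspc1 varied by only 1.15-fold among the 7 libraries and, unlike the 9 genes, was at its lowest in WT replicate 2, at 37.52 TPM. Of the 9 genes Mki67 lay nearest the mean profile of the 7, at 0.154, and Pcna farthest, at 1.41, beyond the median gene.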

How the data were processed

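RNA of 8 libraries was sequenced after Trizol extraction and an mRNA library kit, per the labels' protocols. The authors deposited unscaled estimated counts per gene, which were not whole for 10.3% to 11.0% of values. Per the file headers, the authors also computed TPM and FPKM. The submitters' processing notes list RSEM 1.3.1, HISAT2 2.2.1 and Bowtie2 2.4.5, with mm10 and GRCm38 as builds, and give none of them a role. RSEM divides reads shared by similar genes by estimation. The columns named Ctrl were matched to WT samples by number. Another 8 columns of per-library values and 8 of group means were not used.

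Counts were rounded, filtered with filterByExpr (15098 of 18560 genes kept), scaled by TMM, then tested in R 4.3.3 by edgeR 4.0.16, whose model had group as its only term. Standard errors were derived from the F statistic. Alternatives were DESeq2 1.42.0, limma 3.58.1 on log2(TPM + 0.5), and the others that the closing section names. The edgeR script was tested on simulated data. Log2 CPM used a prior count of 2. Chi-square values of 3.64 to 112 per degree of freedom for pairs of libraries exceeded sampling noise, so each library counted as 1 replicate. Nothing states that libraries came from separate animals beyond the words biological replicates, and p-values measure the spread between these libraries. Gene positions came from RefSeq (GRCm38.p6) and exon overlaps from GENCODE M21.

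Named genes were the 9 members, the 2 genes of lowest p in each list with no gene past the threshold, the 5 genes most like the members, Top2b and Alyref. Single marker genes given from the lists were chosen after their values were seen. The members and lists were chosen with earlier results of these data known.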

Additional observations from a re-analysis of the deposited data

Results flagged for a closer look

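In 4 of 18 groups of 4 libraries for the 9 genes, the gap between a single library and its nearest neighbour was above Dixon's 95% critical share of the group's range. WT replicate 2 was the high library in all of them, at 8.98 TPM for Mcm5, 186.4 TPM for Pcna, 13.96 TPM for Mki67 and 13.59 TPM for Top2a. Chance gives about 1 such group in 20 when groups are independent. The 9 genes share the same libraries, so the 4 groups do not count as separate results. Among the other named genes, WT replicate 2 was high in the same way for Unc13d (3.26 TPM), Hvcn1 (9.64), S1pr4 (2.71), Grap2 (2.78), Ptpn7 (4.09), Rfc3 (19.23) and Tk1 (10.91), and low for Topbp1 (11.90 TPM). Several of these genes were named for a profile that this library sets.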

How the results depend on the processing

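None of the 9 genes passed under any of the 15 alternatives (lowest adjusted p = 0.631), which were DESeq2, RLE scaling, no filter on low counts, a replicate block, limma on log2(TPM + 0.5) and log2(TPM + 0.1), limma-voom and the 8 fits without a library. Of 135 fitted values 129 kept their direction. The other 6 turned without WT replicate 2, where Mcm3 was at 0.045, Mcm4 at 0.08, Mcm7 at 0.028, Pcna at 0.042, Mki67 at 0.053 and Top2a at 0.088. The median of the 9 also turned, to 0.042, without that library and −0.539 to −0.316 without any other. Without a library, fitted values ranged from −0.539 to 0.045 for Mcm3, −0.183 to 0.08 for Mcm4, −0.248 to 0.028 for Mcm7, −0.222 to 0.042 for Pcna, −0.835 to 0.053 for Mki67 and −0.781 to 0.088 for Top2a. Without WT replicate 1, 1 of the 9 (Mcm2) had an unadjusted p below 0.05, beside 820 of 15216 genes. Over all genes DESeq2 called 1 (Lztfl1) and edgeR 1 without WT replicate 2 (Capn11), so counts without a library were 0 to 1. Same-numbered libraries were not shown to pair (correlations of deviations −0.037 to 0.253), and with a replicate block the median of the 9 was −0.30 with no call. Between 3 and 4 neighbouring levels differed without a library. The members with the fewest counts, Mcm5 and Mcm3, carried counting errors of 9.95% and 9.27%.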
